A study of Mus musculus with 11 samples.

Results

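The bone morphogenetic protein (BMP) to ALK1 signalling pathway of lung endothelium was examined through 10 of the 31053 genes counted in the series. The genes were Bmpr2, Acvrl1, Eng, Smad6, Smad7, Id1, Id3, Bmp4, Bmp6 and Tmem100, taken by symbol, and each symbol matched 1 row of the count matrices. Levels are in CPM: the unique molecular identifiers (UMIs) of a gene, summed over the cells of a lineage in a library, per 1000000 UMIs of those cells. The series holds 11 droplet-based 3′ single-cell RNA-seq libraries of whole dissociated mouse lung. Its title names induction of mTert, the mouse telomerase reverse transcriptase, in p21-positive cells, along with loss of capillaries and emphysema. The groups are WT (wild type, +/+; 1 library), p21Het (p21 heterozygotes, +/-; 3 libraries), p21mTert (+/mTert; 5 libraries) and p21mTertCD (+/mTertCD; 2 libraries). p21 is the cell cycle inhibitor encoded by Cdkn1a. The 3 altered genotypes each keep 1 normal p21 allele beside the changed one, and the labels do not spell out CD or the strain. A library is written as its group and replicate, such as p21mTert_1. Gene positions are those of GENCODE M21 on GRCm38 (mm10). The age label is 18 months for 9 libraries, 19 months for p21Het_1 and 20 months for p21mTert_1, although all titles give 18 months. WT_1, p21Het_1 and p21mTert_1 have titles without a replicate tag and are called the earlier deposit, and the other 8 the later one. Both p21mTertCD libraries are in the later deposit, so contrasts with p21mTertCD are not balanced for deposit or age label. The labels do not say how many animals a library holds, so the library, not the animal, is the unit of replication. The p-values of genotype and deposit contrasts measure the spread between libraries. Those between endothelial subtypes measure how far the differences within a library vary from library to library.

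In this pathway, BMP ligands assemble a type II receptor (BMPR2) with a type I receptor, in endothelium mainly ALK1, with endoglin as a co-receptor. The receptors phosphorylate SMAD1, SMAD5 and SMAD9, which with SMAD4 switch on target genes such as Id1, Id3 and the inhibitors Smad6 and Smad7. In the lung the pathway is known for vascular quiescence, and loss of its receptors in humans underlies heritable pulmonary arterial hypertension (BMPR2) and hereditary haemorrhagic telangiectasia (ACVRL1, ENG).

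Cells were assigned to lineages by detection of marker genes, none of which is among the 10 genes described. Of 81983 barcodes, 69267 had 1000 to 30000 UMIs and at most 14% mitochondrial UMIs. Endothelial cells numbered 6844, among them 3897 general capillary (gCap), 807 aerocyte (aCap), 282 arterial, 839 venous and 291 lymphatic cells. Check markers that took no part in the assignment were highest in their own compartment for 6 of 6 genes in each of the endothelial, epithelial, mesenchymal and leukocyte compartments. Within endothelium they were highest in their own subtype for 4 of 6 genes in gCap, 6 of 6 in aCap, 4 of 6 in arterial, 4 of 6 in venous and 5 of 6 in lymphatic cells. The gCap exceptions were Cxcl12 and Ptprb, which were higher in arterial cells. The arterial exceptions were Eln and Fbln5, and the venous ones Nr2f2 and Selenop. The lymphatic exception was Lyve1, at 1945 CPM in lymphatic and 2233 CPM in arterial cells. Libraries held 42038434 to 85988955 UMIs. The median mitochondrial share of kept cells was 6.30% to 6.58% in the earlier and 2.82% to 4.28% in the later deposit. Only library and lineage sums of at least 20 cells were used, which left 11 libraries for gCap, 10 for aCap (without p21Het_3), 7 for arterial, 11 for venous and 9 for lymphatic cells. In these mixed samples, a lower level can reflect fewer expressing cells or less RNA per cell, and CPM does not tell these apart.

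The 250 bases before the RefSeq start site are shown for 3 genes with different subtype patterns: Eng, which did not pass the test between gCap and other blood vessel cells, Smad6, whose mean was highest in arterial cells, and Bmp4, which was high in arterial and venous but not capillary cells. They come from RefSeq (GRCm38.p6) for Eng (chr2:32646345-32646594, plus strand), Smad6 (chr9:64022060-64022309, minus strand) and Bmp4 (chr14:46390670-46390919, minus strand). Promoter windows were matched for 6 of the 10 genes in the table used here. Capitals mark matches, on either strand, to CAGAC (a core of the SMAD-binding element) or CCGGAA (an ETS-type core, from the family that includes endothelial regulators). GGCGCC, a GC-rich SMAD1 and SMAD5 element, was searched too; its last bases can be the first of CCGGAA. Each sequence runs 5′ to 3′ on the gene's strand.
Eng: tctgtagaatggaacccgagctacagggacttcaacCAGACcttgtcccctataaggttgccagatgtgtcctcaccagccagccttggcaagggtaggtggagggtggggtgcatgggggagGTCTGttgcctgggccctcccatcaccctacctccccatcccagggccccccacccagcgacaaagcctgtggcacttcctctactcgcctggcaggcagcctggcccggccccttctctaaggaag
Smad6: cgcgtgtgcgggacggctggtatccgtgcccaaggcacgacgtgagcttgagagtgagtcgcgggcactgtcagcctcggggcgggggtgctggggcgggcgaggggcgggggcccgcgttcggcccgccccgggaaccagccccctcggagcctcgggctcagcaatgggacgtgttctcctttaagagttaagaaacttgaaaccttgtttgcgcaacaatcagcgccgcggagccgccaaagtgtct
Bmp4: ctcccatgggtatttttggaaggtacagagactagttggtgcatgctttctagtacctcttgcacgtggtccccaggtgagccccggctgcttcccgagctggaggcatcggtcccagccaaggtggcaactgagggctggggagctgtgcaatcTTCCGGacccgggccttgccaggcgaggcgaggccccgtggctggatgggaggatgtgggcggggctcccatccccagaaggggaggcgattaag
The Eng window held 2 matches to CAGAC, the Bmp4 window 1 match to CCGGAA, and the Smad6 window none of the 3 motifs. Of 32851 RefSeq windows of the same 250 bases, 42.2% held CAGAC, 12.03% CCGGAA and 9.59% GGCGCC, so that the matches are descriptions of the letters only.

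The receptors were expressed at high level in all 4 blood vessel subtypes and at lower level elsewhere. Bmpr2, the type II receptor (ENSMUSG00000067336, chr1:59763400-59879014, plus strand), was highest in gCap cells, at 1669 to 2218 CPM, with a median of 1966 over 11 libraries (mean 1954 ± 181, SD). In aCap cells it lay at 1193 to 1707 CPM, with a median of 1427. Venous cells held 1229.5 ± 145 CPM (SD, n = 11) and arterial cells 1127 ± 121 CPM (SD, n = 7). The gCap libraries lay mostly above those of the other subtypes, and neighbours after gCap in this order differed by less than their spread. It stood at 202 ± 45.6 CPM (SD, n = 9) in lymphatic cells, at 195 ± 63.2 CPM (SD, n = 11) in alveolar fibroblasts and at 116 ± 9.63 CPM (SD, n = 11) in alveolar macrophages, against 6.61 ± 1.64 CPM (SD, n = 11) in B cells.

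Acvrl1, which encodes the type I receptor ALK1 (ENSMUSG00000000530, chr15:101128522-101145336, plus strand), had the opposite capillary order. It lay at 1249.9 to 2338 CPM, with a median of 1788, in aCap cells (mean 1815 ± 361, SD, n = 10), and at 892 to 1588 CPM, with a median of 1230.2, in gCap cells (mean 1227 ± 227, SD, n = 11). The libraries' ranges overlapped between both capillary types. Venous cells held 748 ± 98.8 CPM (SD, n = 11) and arterial cells 742 ± 77.5 CPM (SD, n = 7), which differed by less than their spread. Outside the blood vessels Acvrl1 formed a low plateau of 97.3 ± 15.5 CPM (SD, n = 11) in alveolar fibroblasts, 94.9 ± 28.3 CPM (SD, n = 9) in lymphatic cells, 93.3 ± 15.03 CPM (SD, n = 11) in dendritic cells and 90.7 ± 12.3 CPM (SD, n = 11) in interstitial macrophages. It was 0.982 ± 0.7605 CPM (SD, n = 11) in alveolar type 2 (AT2) epithelium.

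Eng, the co-receptor endoglin (ENSMUSG00000026814, chr2:32646595-32682669, plus strand), was similar in level across blood vessels. It lay at 1003 to 1686 CPM, with a median of 1203, in gCap cells, at 927 to 1459 CPM, with a median of 1178, in aCap cells, at 897 to 1366 CPM, with a median of 1047, in venous cells and at 828 to 1219 CPM, with a median of 1079, in arterial cells. All 4 ranges overlapped, and neighbours in the order differed by less than their spread. Lymphatic cells held less, at 300.2 ± 67.5 CPM (SD, n = 9), but more than mural cells at 67.5 ± 26.9 CPM (SD, n = 6). The gene for folate enzyme Fpgs overlaps Eng on the opposite strand, and whether the counting used strand is not given in the sources used here. The same holds for Acvrl1 and Gm16031 and for Bmp4 and Gm15217 and Gm15222. On the same strand, Gm38125 overlaps Bmpr2, and Mir1954, Gm47291 and Gm26236 overlap Eng. The part of these overlaps in the levels was not tested.

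**Figure D1:**
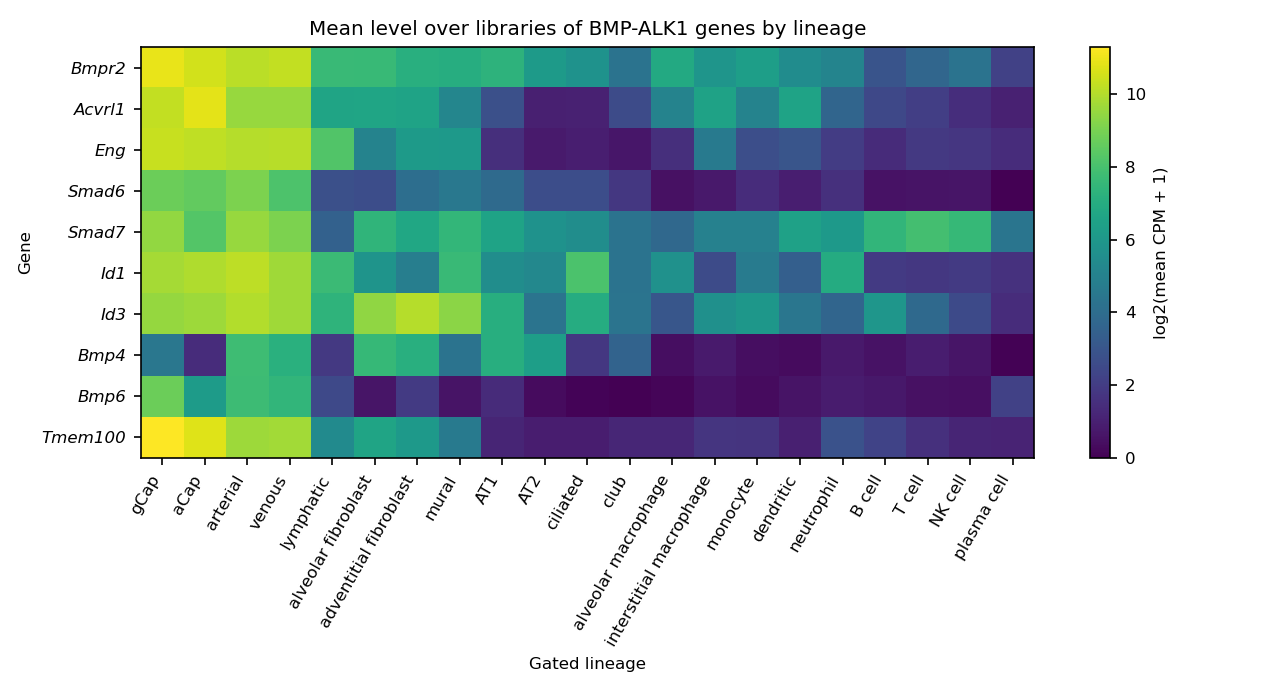
Mean level of the 10 genes (rows) in 21 lineages (columns), as log2 of the mean CPM over libraries plus 1, with brighter colours for higher levels. The 4 blood vessel lineages on the left are bright for most genes, Id3 is also bright in the fibroblast and mural columns, and Smad7 in the lymphocyte columns.

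Tests between endothelial subtypes were paired within libraries, since the subtypes of a library share its cells' digestion and sequencing. In the fit of all 6959 genes, 53.9% were called (edgeR, adjusted p under 0.05) between aCap and gCap cells, 38% between arterial and gCap, 38.8% between venous and gCap and 53.4% between lymphatic and gCap cells. Against these shares, 6, 8, 8 and 10 of the 10 genes were called. Of all genes, 26.1% were higher and 27.8% lower in aCap cells, where 1 of the 10 genes was higher and 5 were lower. In arterial cells 18.5% were higher and 19.5% lower, against 4 and 4 of the 10. In venous cells 19.5% were higher and 19.3% lower, against 2 and 6. In lymphatic cells 27.8% were higher and 25.5% lower, against 0 and 10. A call alone is common in these contrasts. Differences are given as log2, so that 1 is a doubling. Their SE was calculated back from the test, as the absolute difference over the square root of edgeR's F. It can be too small for genes with few UMIs. Bmpr2 was lower than in gCap cells in aCap, at -0.41 ± 0.07 (SE, edgeR adjusted p = 1.1e-06), in arterial, at -0.69 ± 0.08 (SE, edgeR adjusted p = 1.34e-10), and in venous cells, at -0.56 ± 0.07 (SE, edgeR adjusted p = 1.17e-10). Acvrl1 was higher in aCap, at 0.56 ± 0.07 (SE, edgeR adjusted p = 2.16e-10), and lower in arterial, at -0.65 ± 0.08 (SE, edgeR adjusted p = 1.95e-09), and venous cells, at -0.60 ± 0.07 (SE, edgeR adjusted p = 3.11e-11). Eng did not pass the test in any blood vessel contrast, with differences of -0.12 ± 0.08 (SE, edgeR adjusted p = 0.184) in aCap, -0.20 ± 0.09 (SE, edgeR adjusted p = 0.0743) in arterial and -0.15 ± 0.07 (SE, edgeR adjusted p = 0.0904) in venous cells.

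**Figure D2:**
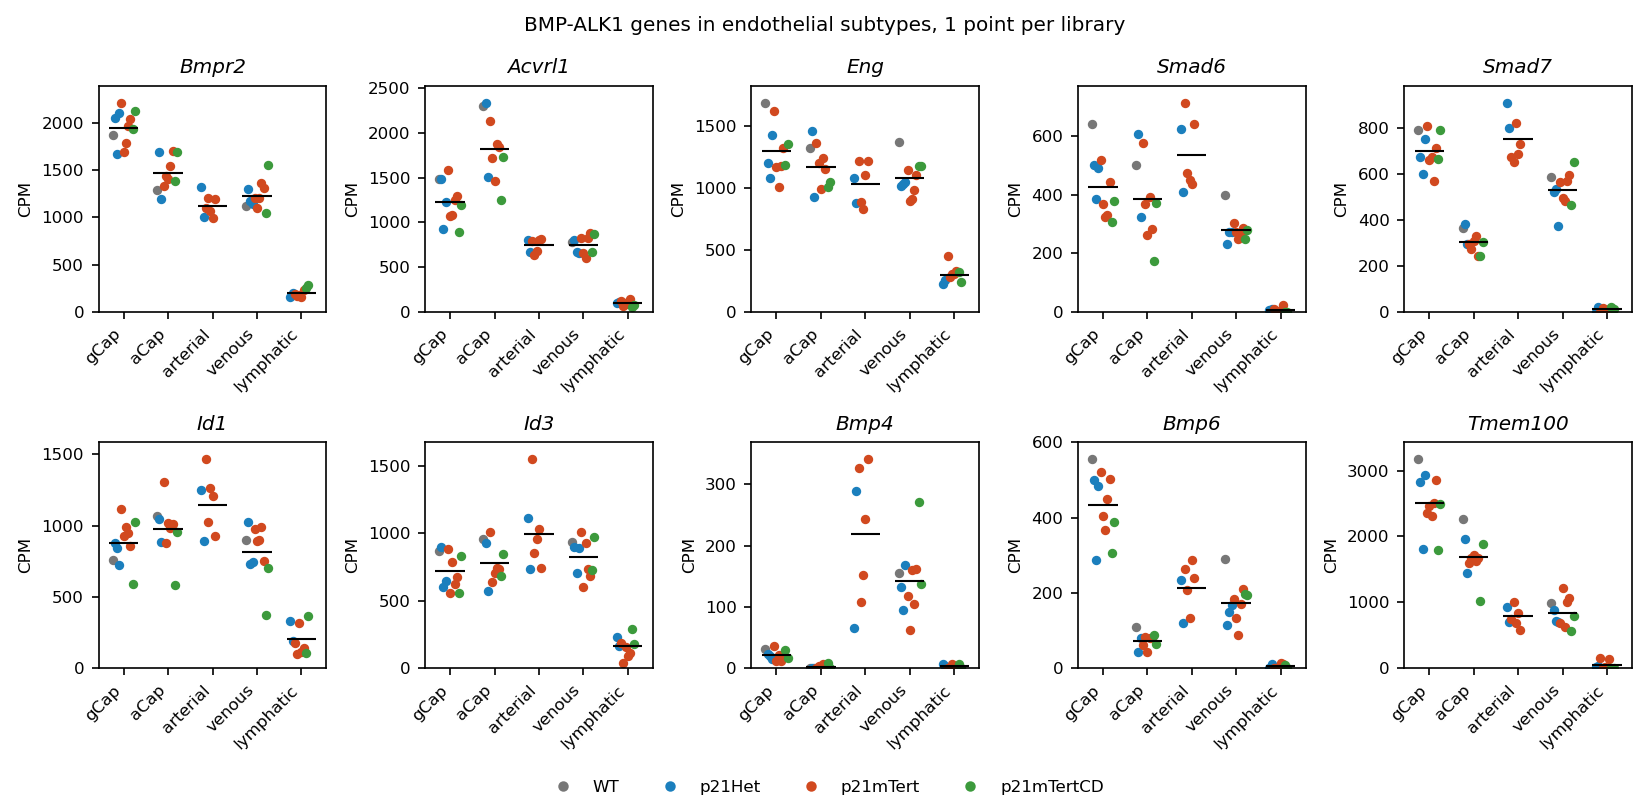
Level (CPM, linear axis from 0) of each gene in 5 endothelial subtypes, with 1 point per library coloured by genotype and a line at the mean. Acvrl1 is highest in aCap, Bmpr2, Bmp6 and Tmem100 in gCap and Bmp4 in arterial cells, while the lymphatic points lie near 0 for most genes.

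The inhibitory SMADs differed from each other in capillary and in lymphoid cells. Smad6, which blocks BMP type I receptor signalling (ENSMUSG00000036867, chr9:63953076-64022059, minus strand), lay at 409.8 to 714 CPM, with a median of 474, in arterial cells and at 306 to 642 CPM, with a median of 385, in gCap cells. It lay at 174 to 607 CPM in aCap and at 231 to 400.0 CPM in venous cells. The arterial range overlapped the capillary ranges, and within libraries the arterial minus gCap difference was 0.45 ± 0.11 (SE, edgeR adjusted p = 0.0007) and the venous minus gCap difference -0.48 ± 0.09 (SE, edgeR adjusted p = 1.84e-05). Outside blood vessels, among lineages with at least 6 libraries, the highest level was 21.6 ± 9.54 CPM (SD, n = 6) in mural cells. Smad7, which blocks both BMP and TGF-beta receptors (ENSMUSG00000025880, chr18:75367529-75395935, plus strand), lay at 571 to 811 CPM, with a median of 673, in gCap cells and at 243 to 382 CPM, with a median of 299, in aCap cells, ranges that did not overlap. The aCap minus gCap difference was -1.19 ± 0.09 (SE, edgeR adjusted p = 2.61e-18), whereas that of Smad6 was -0.11 ± 0.10 (SE, edgeR adjusted p = 0.323). In arterial cells Smad7 stood at 754 ± 93.7 CPM (SD, n = 7), with a difference from gCap of 0.21 ± 0.10 (SE, edgeR adjusted p = 0.0831).

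Smad7 was also present in lymphoid cells and fibroblasts. T cells held 243 ± 38.8 CPM (SD, n = 11), natural killer cells 186 ± 44.7 CPM (SD, n = 11), B cells 174 ± 40.8 CPM (SD, n = 11) and alveolar fibroblasts 168 ± 38.7 CPM (SD, n = 11), and each neighbour in that order, which begins at aCap cells and includes mural cells, differed by less than its spread. After each cell was thinned to 1000 UMIs, a Smad7 UMI was found in 21% of T cells and 16.4% of B cells, as means over libraries, while a Smad6 UMI was found in 0.0654% and 0.0866%. The unthinned shares were 67.8% and 50.05% for Smad7. Median depths were 5915 UMIs per T cell and 4576 per B cell. In gCap cells, at a median depth of 3253 UMIs, the thinned shares were 46.8% for Smad7 and 30.8% for Smad6 (unthinned 78.9% and 63.2%). Free RNA in droplets can give a low share in any type, and it was not measured here. For Tmem100 the share was 0.246% in T cells against 85.5% in gCap cells, thinned in the same way (unthinned 1.203% and 95.6%).

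Id1 and Id3, helix-loop-helix inhibitors that are direct BMP targets, parted outside the endothelium. Id1 (ENSMUSG00000042745, chr2:152736251-152737410, plus strand) lay at 893 to 1468 CPM, with a median of 1210.1, in arterial cells, at 582 to 1308 CPM, with a median of 996, in aCap cells, at 589 to 1115 CPM, with a median of 875, in gCap cells and at 371 to 1024 CPM, with a median of 894, in venous cells. All these ranges overlapped. The next lineages with at least 6 libraries were ciliated cells at 273 ± 73.4 CPM (SD, n = 11) and lymphatic cells at 203 ± 105 CPM (SD, n = 9), while adventitial fibroblasts held 27.2 ± 9.67 CPM (SD, n = 9). Id3 (ENSMUSG00000007872, chr4:136143497-136145755, plus strand) had mesenchymal levels beside those of vessels, at 1051 ± 243 CPM (SD, n = 9) in adventitial fibroblasts, 999 ± 282 CPM (SD, n = 7) in arterial cells, 826 ± 138 CPM (SD, n = 11) in venous cells, 783 ± 147 CPM (SD, n = 10) in aCap, 721 ± 134 CPM (SD, n = 11) in gCap and 685 ± 154 CPM (SD, n = 11) in alveolar fibroblasts. Neighbours in that order differed by less than their spread. Against gCap cells, Id1 was higher in arterial cells at 0.37 ± 0.11 (SE, edgeR adjusted p = 0.00746) and was at -0.01 ± 0.10 (SE, edgeR adjusted p = 0.941) in venous cells. In the later deposit alone, the log2 difference of Id1 in arterial cells was 0.28 (edgeR adjusted p = 0.0984, from the 5 later libraries with arterial sums). Without the library block, that of Id3 in venous cells was 0.31 (edgeR adjusted p = 0.0529). Id3 was higher in arterial, at 0.60 ± 0.11 (SE, edgeR adjusted p = 5.86e-06), and venous cells, at 0.30 ± 0.09 (SE, edgeR adjusted p = 0.00508). In aCap cells neither passed the test, at 0.12 ± 0.10 (SE, edgeR adjusted p = 0.315) for Id1 and 0.12 ± 0.10 (SE, edgeR adjusted p = 0.283) for Id3.

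Id1 and Id3 are themselves quickly inducible, and immediate early genes were also higher in arterial and venous cells. Of a list of 10 dissociation and immediate early genes, 10 were higher in arterial and 10 in venous than in gCap cells, and 9 were higher and 1 lower in lymphatic cells. Of all genes tested, 18.5%, 19.5% and 27.8% were higher in these contrasts. The summed level of the 10 was 3529 to 11539 CPM in gCap, 4542 to 6492 in aCap, 17473 to 28784 in arterial, 10101 to 22668 in venous and 9808 to 20365 in lymphatic libraries. The heat shock gene Hspa1a was higher by 4.29 ± 0.21 (SE) in arterial and by 3.46 ± 0.18 in venous cells, and the transcription factor gene Fos by 1.92 ± 0.13 in venous cells. In aCap cells 4 of 10 were lower, with Atf3 at -1.65 ± 0.19, Egr1 at -0.98 ± 0.17 and Junb at -0.58 ± 0.13, against 27.8% of all genes, and the summed aCap level lay inside the gCap range. Of 11 markers of other lineages, 8 passed the filter on low counts, and of these 7 were lower in arterial, 5 in venous, 6 in aCap and 7 in lymphatic than in gCap cells. The shares of all genes that were lower were 19.5%, 19.3%, 27.8% and 25.5% in that order. The summed level of the 11 markers was 5181 to 16441 CPM in gCap libraries, 1633 to 7719 in aCap, 2450.2 to 12766 in arterial, 2354 to 14542 in venous and 1381 to 5073 in lymphatic ones. Of these markers, Cd74 was lower than in gCap cells by -4.09 ± 0.18 (SE) in aCap, -2.30 ± 0.19 in arterial, -1.41 ± 0.14 in venous and -3.80 ± 0.20 in lymphatic cells. Whether gCap cells express Cd74 themselves was not tested. The part of either list in the differences of the 10 genes was not tested.

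The ligands marked different vessels. Bmp6, known from liver sinusoids as the ligand that sets hepcidin, (ENSMUSG00000039004, chr13:38345107-38500302, plus strand) was almost restricted to blood vessels here. It lay at 288 to 556 CPM, with a median of 451, in gCap cells, at 121 to 287 CPM, with a median of 234, in arterial cells, at 87.9 to 290.2 CPM, with a median of 169.8, in venous cells and at 43.6 to 110.3 CPM, with a median of 79.8, in aCap cells. The gCap and aCap ranges did not overlap. Differences from gCap cells were -2.53 ± 0.12 (SE, edgeR adjusted p = 9.48e-27) in aCap, -0.89 ± 0.13 (SE, edgeR adjusted p = 2.92e-08) in arterial and -1.26 ± 0.10 (SE, edgeR adjusted p = 2.02e-17) in venous cells. Outside blood vessels, among lineages with at least 6 libraries, no mean exceeded the 4.63 ± 5.68 CPM (SD, n = 9) of lymphatic cells, which rested on 10 UMIs in all. Txndc5 overlaps Bmp6 on the opposite strand, and, as for Eng and Fpgs, strand use in counting is not given in the sources used here.

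Bmp4, a ligand of vascular and epithelial development (ENSMUSG00000021835, chr14:46383520-46390669, minus strand), was higher in arterial and venous than in gCap cells, unlike Bmp6. It lay at 65.00 to 342 CPM, with a median of 244, in arterial cells and at 61.9 to 272 CPM, with a median of 137, in venous cells, against 10.9 to 36.7 CPM, with a median of 21.6, in gCap cells. The lowest arterial and venous libraries lay above the highest gCap library. In aCap cells 7 Bmp4 UMIs were counted over 10 libraries, 1.72 ± 3.11 CPM (SD). The differences from gCap were 3.6 ± 0.19 (SE, edgeR adjusted p = 1.48e-24) in arterial, 2.84 ± 0.15 (SE, edgeR adjusted p = 3.58e-24) in venous and -3.11 ± 0.48 (SE, edgeR adjusted p = 9.99e-08) in aCap cells, the last from few UMIs. Outside the endothelium, alveolar fibroblasts held 185 ± 24.6 CPM (SD, n = 11), adventitial fibroblasts 137 ± 33.1 CPM (SD, n = 9), alveolar type 1 cells 134 ± 63.6 CPM (SD, n = 5) and AT2 cells 79.7 ± 14.1 CPM (SD, n = 11). B cells held 0.468 ± 0.238 CPM (SD, n = 11).

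Tmem100, a transmembrane protein gene induced downstream of ALK1 (ENSMUSG00000069763, chr11:90030348-90036508, plus strand), followed the capillaries. It lay at 1793 to 3177 CPM, with a median of 2494, in gCap cells, at 1024 to 2268 CPM, with a median of 1673, in aCap cells, at 562 to 1213 CPM, with a median of 786, in venous cells and at 582 to 996 CPM, with a median of 747, in arterial cells. The gCap range lay above the venous and arterial ranges and overlapped that of aCap cells. Differences from gCap were -0.56 ± 0.13 (SE, edgeR adjusted p = 0.000264) in aCap, -1.61 ± 0.16 (SE, edgeR adjusted p = 9.94e-13) in arterial and -1.48 ± 0.13 (SE, edgeR adjusted p = 4.17e-15) in venous cells. After thinning to 1000 UMIs, 85.5% of gCap and 52.2% of arterial cells held a UMI. Alveolar fibroblasts held 96.95 ± 37.3 CPM (SD, n = 11).

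**Figure D3:**
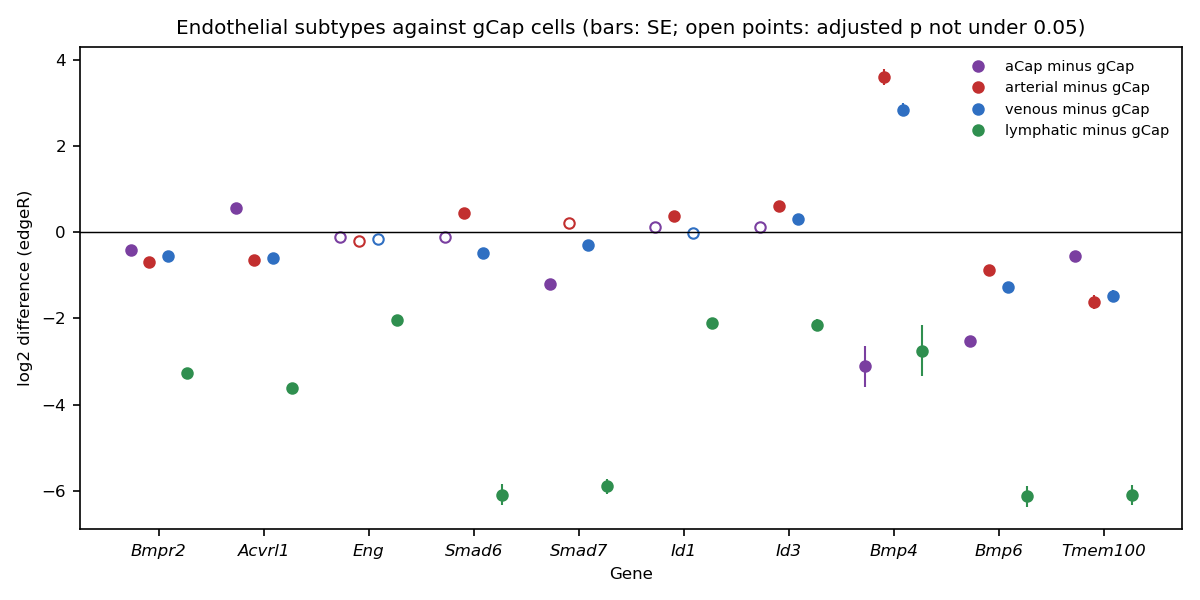
Log2 difference of each gene from gCap cells in 4 endothelial subtypes, with bars for the SE and open points where the edgeR adjusted p was not under 0.05. Bmp4 is above 2 in arterial and venous cells, Acvrl1 above 0 in aCap cells alone, and all lymphatic points are at -2.04 or lower.

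In lymphatic endothelium all 10 genes were called, and all 10 were lower than in gCap cells, where 25.5% of all genes tested were called lower. The difference was smallest for Eng, at -2.04 ± 0.09 (SE, edgeR adjusted p = 4.22e-28), Id1, at -2.11 ± 0.13 (SE, edgeR adjusted p = 4.5e-22), and Id3, at -2.14 ± 0.13 (SE, edgeR adjusted p = 1.4e-22). It was intermediate for Bmpr2, at -3.26 ± 0.09 (SE, edgeR adjusted p = 1.36e-38), and Acvrl1, at -3.62 ± 0.10 (SE, edgeR adjusted p = 1.94e-38). The inhibitory SMADs were counted with 10 Smad6 and 21 Smad7 UMIs over 9 libraries, and differences of -6.09 ± 0.25 (SE, edgeR adjusted p = 1.42e-30) and -5.90 ± 0.18 (SE, edgeR adjusted p = 8.69e-37). Tmem100 was lower at -6.10 ± 0.23 (SE, edgeR adjusted p = 3.07e-32) and Bmp6 at -6.13 ± 0.25 (SE, edgeR adjusted p = 2.92e-30). The SEs for Smad6, Smad7 and Bmp6, which rest on few lymphatic UMIs, can be too small. Tmem100 lymphatic libraries ranged from 0 to 144 CPM.

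Other genes of the pathway went both ways in lymphatic cells, where 27.8% of all genes tested were higher and 25.5% lower than in gCap cells. Against that background, counts over lists of 5 or 6 genes are a description and show nothing particular to the lists. Of 6 tested SMAD and ubiquitin ligase genes, 4 were higher and 1 lower than in gCap cells, among them Smad1, which carries the BMP signal, at 2.57 ± 0.11 (SE), and Smad5 at 1.29 ± 0.12. Smurf2, a ubiquitin ligase that acts on SMADs and receptors, was lower at -1.34 ± 0.14. Of 6 other receptors tested, 3 were higher, with the TGF-beta type II receptor gene Tgfbr2 at 3.49 ± 0.09 and the co-receptor gene Tgfbr3 at 1.12 ± 0.12, and 1 was lower, Acvr1b at -2.56 ± 0.26. The secreted modulator Twsg1, which binds BMPs, was higher at 3.26 ± 0.23. Of 5 BMP target genes tested, 1 was higher, Bambi at 1.49 ± 0.24, and 3 were lower. The lower ones were Efnb2, at -2.22 ± 0.17, and Msx1 and Atoh8, which had 0 UMIs in lymphatic cells. All these genes passed edgeR's test with an adjusted p under 0.05.

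Between aCap and gCap cells, 26.1% of all genes tested were higher in aCap cells and 27.8% lower, and the counts over lists are again a description. Smad1 was lower in aCap than in gCap cells at -0.98 ± 0.15 (SE), as was Smad5 at -0.51 ± 0.13, while Tgfbr3 at 1.06 ± 0.10 and Acvr1b at 0.72 ± 0.11 were higher. In all, 3 of 6 receptors were higher, and 1 of 6 SMAD or ubiquitin ligase genes was higher and 3 lower. Of the 5 BMP target genes tested that took no part in the assignment, 5 were lower in aCap cells. They included Bambi, a pseudoreceptor that dampens the signal, at -1.73 ± 0.34. Arterial cells had 4 of these 5 higher, against 18.5% of all genes, with Atoh8 at 2.56 ± 0.28, Id2 at 1.74 ± 0.14 and Bambi at 1.63 ± 0.24, and venous cells 3 higher and 2 lower, against 19.5% and 19.3%, with Bambi at 2.41 ± 0.15 and the arterial ephrin gene Efnb2 at -2.30 ± 0.13. The follistatin-like gene Fstl1 was higher in arterial, at 4.37 ± 0.17, and venous cells, at 4.12 ± 0.13, beside Bmp4. Smurf1 was higher in arterial cells at 1.49 ± 0.17. Ltbp1, which anchors latent TGF-beta, was lower in aCap cells at -5.16 ± 0.34, where its level was 1.35 ± 1.92 CPM (SD, n = 10).

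Genes with the most similar pattern were ranked over 20 lineages with at least 6 libraries by Pearson's r of log2(mean CPM + 1), with gate markers and the 10 genes left out. The lineages come from the same libraries, so that r is a description. For Tmem100, these were Foxf1 (0.98), Fmo1 (0.96) and Pxdn (0.96). For Bmp6, these were Dnah2os (0.98), Tspan7 (0.96) and Clec14a (0.96). For Smad6, these were Foxf1 (0.95), Kif26a (0.94) and Tspan7 (0.94). Foxf1, a transcription factor gene of lung mesenchyme and capillaries, ranked first for both Tmem100 and Smad6. Acvrl1 was closest to Nostrin (0.95), Stard9 (0.94) and Nav1 (0.93). Bmpr2 was closest to Fzd4 (0.93), Smurf2 (0.93) and Cyth3 (0.92). Eng was closest to Lrrc8a (0.95), Nynrin (0.95) and Tspan18 (0.95). Bmp4 was closest to Fmo2 (0.91), Atp8b1 (0.90) and Ctps (0.90). Id1 was closest to Cav2 (0.90), Slc9a3r2 (0.88) and Cpd (0.88). Id3 was closest to Pkd1 (0.93), 0610037L13Rik (0.92) and CAAA01147332.1 (0.92). Smad7 was closest to Patz1 (0.83), Armcx5 (0.82) and Ablim1 (0.82). 

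Between genotypes, none of the 10 genes was called in endothelial cells, in any of the 3 contrasts, at edgeR adjusted p under 0.05. Over all 10997 genes, the called share was 0.0182% for p21mTert against p21Het, 0.109% for p21mTert against p21mTertCD and 0.00909% for p21mTertCD against p21Het. At an unadjusted p under 0.05, 512, 783 and 518 genes passed, and DESeq2 also called 0 of the 10. With no difference at all, a share of about 0.05 of the genes would pass unadjusted, here and in the other cell sets. The largest difference in the p21mTert and p21Het comparison was that of Id1. It was 922, 778 and 691 CPM in p21Het, 1082, 900.0, 948, 932 and 803 in p21mTert, 565 and 870.5 in p21mTertCD and 862 in WT. p21mTertCD_1 was the lowest library and p21mTert_1 the highest, and the groups overlapped. For 0 of the 10 genes were groups apart in level, against 2.26%, 11.3% and 14.2% of all genes in the 3 contrasts. The log2 difference was 0.25 ± 0.13 (SE, edgeR adjusted p = 1) for p21mTert minus p21Het, 0.33 ± 0.15 (SE, edgeR adjusted p = 0.697) for p21mTert minus p21mTertCD and -0.08 ± 0.16 (SE, edgeR adjusted p = 1) for p21mTertCD minus p21Het. The 3 contrasts share libraries. Summed immediate early genes were 6843 to 10629.8 CPM in p21Het, 8588 to 14185 in p21mTert and 7309.8 to 12652 in p21mTertCD libraries, and their part in Id1 was not tested. Summed markers of other lineages were 4869 to 13453, 4577 to 10918 and 3707 to 6711 CPM.

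Smad6 was 466.1, 329 and 402 CPM in p21Het, 478, 347, 304, 323 and 379.9 in p21mTert, 301 and 330.2 in p21mTertCD and 535 in WT endothelium. The 3 libraries of the earlier deposit were the highest of their groups or, for WT, of all. Log2 differences were -0.10 ± 0.11 (SE, edgeR adjusted p = 1) for p21mTert minus p21Het, 0.14 ± 0.13 (SE, edgeR adjusted p = 0.882) for p21mTert minus p21mTertCD and -0.24 ± 0.14 (SE, edgeR adjusted p = 1) for p21mTertCD minus p21Het. The receptor levels overlapped between groups. In p21mTert libraries Bmpr2 was 1631, 1441, 1419, 1586 and 1633 CPM, in p21mTertCD 1540.3 and 1738 and in p21Het 1688, 1376 and 1657. In p21mTert libraries Acvrl1 was 1285, 1033, 933, 1167 and 1122 CPM, in p21mTertCD 787 and 1049 and in p21Het 1307, 859 and 999.8.

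**Figure D4:**
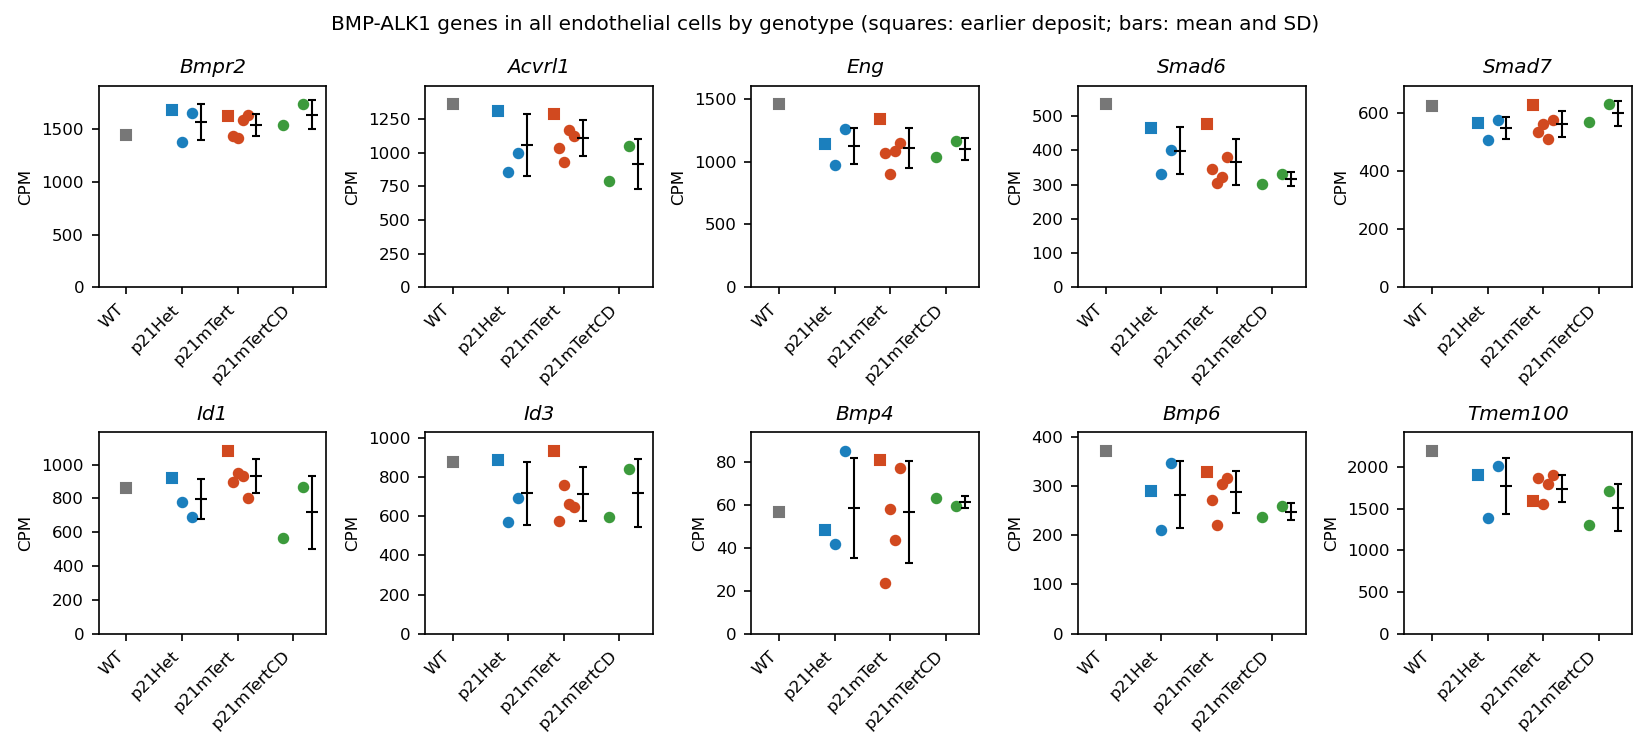
Level (CPM, linear axis from 0) of the 10 genes summed over all endothelial cells, by genotype, with 1 point per library (squares for the earlier deposit) and the mean and SD beside each group of more than 1 library. The 3 groups with more than 1 library overlap for all 10 genes, and the single WT library is the highest for Acvrl1, Eng, Bmp6, Tmem100 and Smad6, the last at 535 CPM.

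In gCap cells 0 of the 10 genes were called in the 3 contrasts, with backgrounds of 0.0218%, 0.284% and 0.174% in the order above, and DESeq2 called 0. Of the 10 genes, 0, 0 and 1 had groups that did not overlap in level, against 1.88%, 10.3% and 14.4% of all 9171 genes, so that 1 of 10 is near the background. The 1 was Smad6, between p21mTertCD at 306 and 379 CPM and p21Het at 501, 385 and 492 CPM, with a log2 difference of -0.32 ± 0.17 (SE, edgeR adjusted p = 1). The p21mTert libraries, at 517, 369.9, 325, 329.8 and 443 CPM, spanned both. Summed markers of other lineages overlapped between these groups, at 5561 to 14759.6 CPM in p21Het, 6170.0 to 16441 in p21mTert and 5181 to 8824 in p21mTertCD gCap cells. In aCap cells 9 of the genes passed the filter on low counts, Bmp4 being too low, and 0 were called, with backgrounds of 0.0538%, 0% and 0%. There, 203, 325 and 282 of 5572 genes had an unadjusted p under 0.05 in edgeR, and DESeq2 called 0 genes in each contrast. The summed markers of other lineages in aCap cells were 5796 to 7719 CPM in p21Het, 2535 to 4645 in p21mTert and 1633 to 3446 in p21mTertCD, so that p21Het lay above both with no overlap. Among them the hemoglobin gene Hba-a1 was called lower in p21mTert than in p21Het, with a log2 difference of -2.63 ± 0.44 (SE, edgeR adjusted p = 0.0102). The part of these markers in the aCap values was not tested. The difference of aCap or venous cells from gCap cells was also compared between genotypes for each gene. In 60 exact permutation tests the smallest 2-sided p was 0.0952, and 0.889 after adjustment. The 2-sided p is 2 times the smaller tail, whose lowest value is 0.0179 for 5 libraries against 3, 0.0476 for 5 against 2 and 0.1 for 2 against 3. It therefore cannot come below 0.0952 for 5 against 2 or below 0.2 for 2 against 3. Before adjustment, only the tests of 5 against 3 could have come under 0.05. After adjustment over the 60 tests none could, so that not passing was fixed beforehand for all of them. With aCap cells p21Het had 2 libraries, and 2 against 2 cannot come below 0.333.

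In mesenchymal cells, as a second compartment with Bmpr2, Id3 and Bmp4, 9 genes passed the filter (Bmp6 was too low) and 0 were called, against backgrounds of 0.0306%, 0.0102% and 0%. DESeq2 called 0 as well, and in the last contrast, where edgeR called 0 genes, 448 had an unadjusted p under 0.05. Bmpr2 was 141, 179 and 158 CPM in p21Het, 131, 143, 142, 179.8 and 173 in p21mTert, 271 and 206 in p21mTertCD and 113 in WT. Both p21mTertCD libraries, which are of the later deposit, lay above those of p21mTert and p21Het. The earlier libraries were the lowest of their groups, at 141 CPM in p21Het_1 and 131 CPM in p21mTert_1. The list of markers used above for other lineages summed in these cells to 5296 to 6128 CPM in p21mTertCD, 6473 to 9732 in p21Het and 5765 to 13546 in p21mTert. With it, p21mTertCD lay below p21Het with no overlap. The list includes the mesenchymal genes Col1a2, Col3a1 and Dcn, so in mesenchymal cells the sum does not measure RNA of other lineages alone. Immediate early genes summed to 12896 to 20041, 11034 to 15922 and 11614 to 15347 CPM, with overlap, and the part of either list in the Bmpr2 levels was not tested. The log2 difference was -0.64 ± 0.18 (SE, edgeR adjusted p = 0.785) for p21mTert minus p21mTertCD, 0.61 ± 0.20 (SE, edgeR adjusted p = 1) for p21mTertCD minus p21Het and -0.03 ± 0.17 (SE, edgeR adjusted p = 1) for p21mTert minus p21Het. Groups that did not overlap in level were found for 0, 2 and 2 of the 10 genes, and for 3.16%, 8.09% and 17% of all 9809 genes, and with so few genes these counts are read as no result. Beside Bmpr2, Id3 did not overlap between p21mTert, at 569.8, 692, 753, 653 and 655 CPM, and p21mTertCD, at 873 and 794 CPM. Smad7 did not overlap between p21mTertCD, at 183 and 186 CPM, and p21Het, at 131, 156 and 132 CPM. None of these 3 passed the test.

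The earlier and later deposits were compared because their mitochondrial shares stood apart, a contrast chosen after the data were seen. WT_1 was left out of this fit, so the earlier side held only p21Het_1 and p21mTert_1. Their age labels are 19 and 20 months, while all later libraries are labelled 18 months, so deposit and age label cannot be told apart. In endothelial cells 3.71% and in gCap cells 3.26% of genes were called, and 0 of the 10 genes (edgeR and DESeq2). Without p21Het_1 the counts over all genes were 0 and 0, and without p21mTert_1 they were 7 and 10, against 408 and 299. Id3 was 0.30 ± 0.12 (SE, edgeR adjusted p = 0.178) higher in the earlier deposit in endothelial cells and Smad6 0.23 ± 0.10 (SE, edgeR adjusted p = 0.221). Of 12 BMP target genes tested, Cxcr4, a chemokine receptor gene, was higher in the earlier deposit, by 1.92 ± 0.27 (SE, edgeR adjusted p = 0.00595). The activin subunit gene Inhbb was lower, at -1.77 ± 0.36 (SE, edgeR adjusted p = 0.024). Of the markers of other lineages, the haemoglobin genes Hbb-bs, at -3.73 ± 0.94 (SE, edgeR adjusted p = 0.0459), and Hba-a1, at -3.51 ± 0.86 (SE, edgeR adjusted p = 0.0422), were lower in the earlier deposit in endothelial cells. In gCap cells Hbb-bs was lower at -4.30 ± 1.11 (SE, edgeR adjusted p = 0.0447). Cd74, an antigen presentation gene that was higher in gCap than in the other endothelial subtypes, was lower there at -0.94 ± 0.24 (SE, edgeR adjusted p = 0.0454). The part of these marker genes in the differences between deposits was not tested.

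Whether response genes vary together between libraries was asked in gCap cells, over 11 libraries and 6 pairs of Id1, Id3, Smad6 and Smad7. Pearson's r was 0.61 for Id3 and Smad6 (permutation p = 0.0491, adjusted 0.0981), with Spearman's rho of 0.67 (permutation p = 0.0282, adjusted 0.0718). For Id3 and Smad7, r was 0.62 (permutation p = 0.0444, adjusted 0.0981) and rho 0.72 (permutation p = 0.0155, adjusted 0.0718). For Smad6 and Smad7, r was 0.64 (permutation p = 0.0352, adjusted 0.0981) and rho 0.65 (permutation p = 0.0359, adjusted 0.0718). For Id1, r was 0.46 to Id3, 0.03 to Smad6 and 0.12 to Smad7 (permutation adjusted p = 0.228, 0.933 and 0.881), and rho was 0.39, -0.03 and 0.23 (permutation adjusted p = 0.357, 0.945 and 0.606). Over the 11 libraries none of the 6 passed after adjustment, and differences between the correlations were not tested. Leaving out 1 library brought 2 Spearman values past it: Id3 and Smad7 had rho of 0.83 without p21Het_1 (permutation adjusted p = 0.029), and Id3 and Smad6 had rho of 0.79 without p21mTert_3 (permutation adjusted p = 0.0499). Within the 8 libraries of the later deposit, r was 0.10 for Id3 and Smad6, 0.54 for Id3 and Smad7, 0.50 for Smad6 and Smad7 and 0.59 for Id1 and Id3, the highest of the 6 there. The earlier deposit has too few libraries. Without the 2 libraries farthest from the median, r of the first 3 of these pairs was 0.49, 0.66 and 0.42. With group means removed, r reached 0.88 for Smad6 and Smad7 (permutation adjusted p = 0.00774) and 0.73 for Id1 and Id3 (permutation adjusted p = 0.0393) over 10 libraries. The Spearman values in that setting did not pass, with rho of 0.78 (permutation adjusted p = 0.0647) and 0.68 (permutation adjusted p = 0.0689). The permutations there treated the 10 values as free, although 3 group means had been taken out and the 2 p21mTertCD values mirror each other. The p-values with group means removed can therefore be too small. On TMM library sizes, r of the 3 pairs among Id3, Smad6 and Smad7 was, in the same order, 0.14, 0.17 and 0.12, that of Id1 and Id3 0.34 and that of Id1 and Smad7 0.19.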

How the data were processed

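The data are 11 libraries of mouse lung, prepared with 10x Genomics 3′ chemistry. Per the submitters' processing notes, reads were mapped to mm10 with Cell Ranger. The version in the file headers (3.1.0) differs from that in the series' design text. The deposited values are raw UMI counts per gene and barcode: they are whole numbers, and barcodes below the study's stated UMI minimum are still present, so that its cell filter and scran normalization are not in them. Kept barcodes had a total of 1000 to 30000 UMIs, of which mitochondrial genes took 14% or less.

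Cells entered a compartment with at least 3 of its 12 marker genes and fewer than 3 of any other. The 5068 cells (7.32%) that passed more than 1 compartment were set aside as possible doublets, and 4223 (6.10%) passed none. Within a compartment a cell took the lineage with the most markers, at least 2, and ties stayed unassigned. No pair of libraries shared more than 20 barcodes. UMIs were summed per library and lineage, with sums under 20 cells left out. Levels are CPM of these sums. Genotype contrasts used edgeR 4.0.16 in R 4.3.3 (glmQLFit and glmQLFTest after filterByExpr and TMM) over the 10 libraries of p21Het, p21mTert and p21mTertCD, with group as the only term. WT, with 1 library, entered no genotype or deposit test. Subtype contrasts used 1 fit over all 11 libraries with a library term. Genes with a Benjamini-Hochberg adjusted p under 0.05 over all genes tested are called. Alternatives were DESeq2 1.42.0, RLE normalization, no low-count filter, a stricter gate (5 and 3 markers), Scrublet-marked cells left out (scanpy 1.11.5), the later deposit alone, fewer groups, a deposit term, a replicate block and leaving out each library. Scrublet-marked cells were those with the highest Scrublet scores, up to a set rate of 0.8% per 1000 barcodes, and not those that Scrublet itself called. Correlations used log2(CPM + 1) and 100000 permutations. For shares of cells with a UMI, cells were thinned to 1000 UMIs. GENCODE M21 held 30934 of the 31053 gene identifiers. Python 3.11.15, numpy 2.4.6, pandas 2.3.3, scipy 1.17.1 and matplotlib 3.10.9 were used.

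The 10 genes and the gene lists were chosen with earlier results of these data known. Genes outside the 10 are named by rule: up to 3 per list, direction and contrast with the largest called difference, and the 3 most similar per gene. Not every gene that qualified is printed, and which were printed was decided after their values were seen.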

Additional observations from a re-analysis of the deposited data

Results flagged for a closer look

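In aCap cells, Id3 in the p21mTert_1 library was 1014 CPM, while the other p21mTert libraries lay between 636 and 745 CPM. The gap to the nearest library was 0.712 of the whole range of the 5 libraries, above Dixon's 95% limit for that number. Of 40 sets of values examined in this way, each a gene in a cell set over the p21mTert libraries, 1 held a value set apart. Chance sets apart about 1 in 20 independent sets, but these share libraries and in part cells. p21mTert_1 belongs to the earlier deposit and has an age label of 20 months, and the part of either in this value was not tested. The other earlier libraries were also high in aCap cells, at 957 CPM in WT_1 and 932 CPM in p21Het_1. All later libraries lay between 570 and 844 CPM, so the value is not particular to p21mTert_1.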

How the results depend on the processing

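None of the 10 genes was called between genotypes or deposits in the cell sets tested, under any alternative that was run. Counts over all genes come in the order contrast 1 (p21mTert minus p21Het), contrast 2 (p21mTert minus p21mTertCD) and contrast 3 (p21mTertCD minus p21Het), and the cause of each shift was not tested. With DESeq2, 7, 61 and 29 genes were called in endothelial cells, 45 (p21mTert minus p21mTertCD) and 34 (p21mTertCD minus p21Het) in gCap, 0 in aCap (p21mTert minus p21Het) and 3 in mesenchymal cells (p21mTert minus p21mTertCD). With no filter on low counts they were 66, 140 and 96 in endothelial, 67, 109 and 91 in gCap, 25, 15 and 9 in aCap and 180, 103 and 89 in mesenchymal cells, and 899 and 564 between deposits in endothelial and gCap cells. In the later deposit alone they were 4, 6 and 0 in endothelial, 15, 1 and 8 in aCap, 14 (p21mTert minus p21Het) and 3 (p21mTertCD minus p21Het) in gCap, and 1 and 3 in mesenchymal cells for contrasts 1 and 2. With a term for deposit they were 4, 20 and 0 in endothelial, 6 and 3 in aCap (contrasts 1 and 3), 4 in gCap (contrast 1) and 2 in mesenchymal cells (contrast 2). With only the 2 groups compared they were 4 and 0 in endothelial and 1 and 0 in gCap cells (contrasts 1 and 3), 3 in aCap (contrast 3) and 2 in mesenchymal cells (contrast 2). Without Scrublet-marked cells they were 0 in endothelial (contrast 3), 0 in aCap (contrast 1), and 1 and 0 in mesenchymal cells (contrasts 1 and 2). The stricter gate gave 9 in mesenchymal cells (contrast 1).

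With the replicate number as a block, 1, 0 and 0 genes were called in endothelial, 0 and 0 in gCap (contrasts 2 and 3), 0 in aCap (contrast 1) and 0 in mesenchymal cells (contrast 2). The numbers do not pair libraries by the labels: same-numbered p21Het and p21mTert libraries had correlations of deviations of 0.44, 0.19 and 0.0068. Leaving out each library gave 0 to 4, 0 to 70 and 0 to 51 genes in endothelial, 1 to 10, 0 to 62 and 0 to 58 in gCap, 0 to 14, 0 to 20 and 0 to 7 in aCap and 0 to 4, 0 to 6 and 0 to 1 in mesenchymal cells. The highest p21mTert minus p21mTertCD and p21mTertCD minus p21Het counts in endothelial and gCap cells came without p21mTertCD_2. Leaving out either p21mTertCD library leaves 1, which the fit assumes to vary like the other groups, so those counts rest on a spread not measured in p21mTertCD. Between deposits the ranges were 0 to 488 in endothelial and 0 to 392 in gCap cells, with 0 and 0 without p21Het_1 and 7 and 10 without p21mTert_1.

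Small log2 differences changed sign. Leaving out 1 library, Id1 in endothelial cells (p21mTertCD minus p21Het) ranged from -0.33 to 0.13, the latter without p21mTertCD_1. Bmpr2 in mesenchymal cells (p21mTert minus p21Het) ranged from -0.15 to 0.13 and was 0.0089 without Scrublet-marked cells. Smad6 in gCap cells between deposits ranged from -0.066 to 0.31, and Id1 between venous and gCap cells from -0.048 to 0.030, with 2.72e-06 under RLE normalization. The correlation of Id1 and Smad6 ranged from -0.45 to 0.24 and that of Id1 and Smad7 from -0.11 to 0.26. They were -0.0103 and -0.0111 in the later deposit alone and -0.79 and -0.28 without the 2 farthest libraries. On TMM library sizes that of Id1 and Smad6 was -0.33. With group means removed, that of Id1 and Id3 was 0.73 and that of Smad6 and Smad7 0.88, while the Spearman values did not pass. As means of each cell's own CPM, levels were 58.0 for Bmpr2, 1.80 for Acvrl1 and 1.31 for Eng in AT2 cells, 55.4 for Acvrl1, 100.4 for Eng and 35.4 for Bmp4 in mural cells, 0.357 for Bmp6 in ciliated cells and 1061 for Tmem100 in arterial cells. With the stricter gate, mesenchymal levels were 1.76 for Bmp6 and 117 for Id1.

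Eng was called lower in aCap cells without p21Het_1 and lower in arterial cells without p21mTert_4, without Scrublet-marked cells and with no filter. Smad7 was called higher in arterial cells without p21Het_3, without p21mTert_1 and under RLE normalization. Depth limits Bmp4 and Bmp6 outside their main lineages, where some libraries held no UMI, and the 7 arterial libraries rest on 282 cells or fewer.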
